A study of Mus musculus with 6 samples.

Results

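The PPAR, PGC-1 and ERR regulators are the nuclear receptors and coactivators that set how much fuel-burning machinery a heart cell makes. They were taken as the rows of the deposited expression table that carry 1 of 10 gene symbols, namely the receptors Ppara, Ppard and Pparg, their partner Rxra, the coactivators Ppargc1a and Ppargc1b, the receptors Esrra, Esrrb and Esrrg, and the corepressor Nrip1. Each symbol was found on a single row, so the set held 10 of the 32479 rows, and all 10 had a mean of at least 1 FPKM, the level needed to be tested. FPKM counts sequenced fragments scaled to the length of the gene and to the mapped fragments of the library, so levels can be compared between genes.

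Peroxisome proliferator-activated receptors (PPARs) are switched on by fatty acids and bind DNA as pairs with a retinoid X receptor (RXR), and in heart muscle they raise the genes that take up and oxidise fat. PGC-1 coactivators bind no DNA themselves. They dock on PPARs and on the estrogen-related receptors (ERRs), orphan receptors that drive genes of the citric acid cycle and the respiratory chain, while NRIP1 (RIP140) docks on the same receptors and represses.

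The study compared 3 libraries from control C57BL/6J mice with 3 from mice of the same strain given carbon tetrachloride (CCl4), a liver toxin used to model cirrhosis. The samples were labelled as primary cardiac fibroblasts, and the design text gives 3 mice in each group without saying that each library is from its own mouse. If mice were shared or pooled, p-values measure only the spread between libraries. The sources used here give no age or sex, and no dose, route or duration of CCl4. Counts of fragments could not be recovered from the values, and a rough estimate put the depth at 39.4 to 42.7 M fragments in control and 29.5 to 37.9 M in CCl4 libraries.

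The label was checked against defining markers. Fibroblast markers were present, with Dcn at 79.1 to 141.6 FPKM and Pdgfra at 3.47 to 4.71 FPKM, but heart muscle markers were far more abundant. Myh6, the main myosin of the mouse heart muscle cell, stood at 914.3 to 2390 FPKM and Mb, myoglobin, at 3691 to 4583 FPKM. The 11 cardiomyocyte markers summed to 12414 to 15209 FPKM in control libraries and to 18448 to 20365 FPKM after CCl4. The 9 fibroblast markers summed to 455.0 to 733.7 and 580.9 to 589.9 FPKM, and 5 of them rose and none fell. That was 55.6%, beside 31.8% of all tested rows that changed in either direction. The 5 were the matrix genes Col1a1, Col1a2, Col3a1, Lum and Dpt. Of the 4 that did not pass the test, Dcn, Gsn and Pdgfra had a negative log2 fold change and Tcf21 a positive one. Of 8 mural cell markers 2 rose and none fell (25%), with 1 to 4 higher when 1 library was left out. The regulators below were thus read in RNA that held heart muscle transcripts, and in bulk RNA fewer cells of a type cannot be told apart from less RNA per cell.

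In CCl4 libraries 2 of the 10 regulators fell and none rose. The coactivator Ppargc1a went from 16.2 ± 1.78 to 9.61 ± 0.95 FPKM and the receptor Pparg from 4.58 ± 0.267 to 2.93 ± 0.718 FPKM (SD, n = 3 each). The other 8, among them Ppara and all ERRs, did not pass the test. The called share of 20% lay below the 31.8% called among all 10995 tested rows, where 9.64% were higher and 22.2% lower. Rows were tested with limma on log2(FPKM + 1) and called at a Benjamini-Hochberg adjusted p under 0.05. The median log2 fold change of the 10 was -0.15, beside -0.09 over all tested rows. A negative value was seen in 7 of the 10, beside 62.6% of all tested rows.

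**Figure D1:**
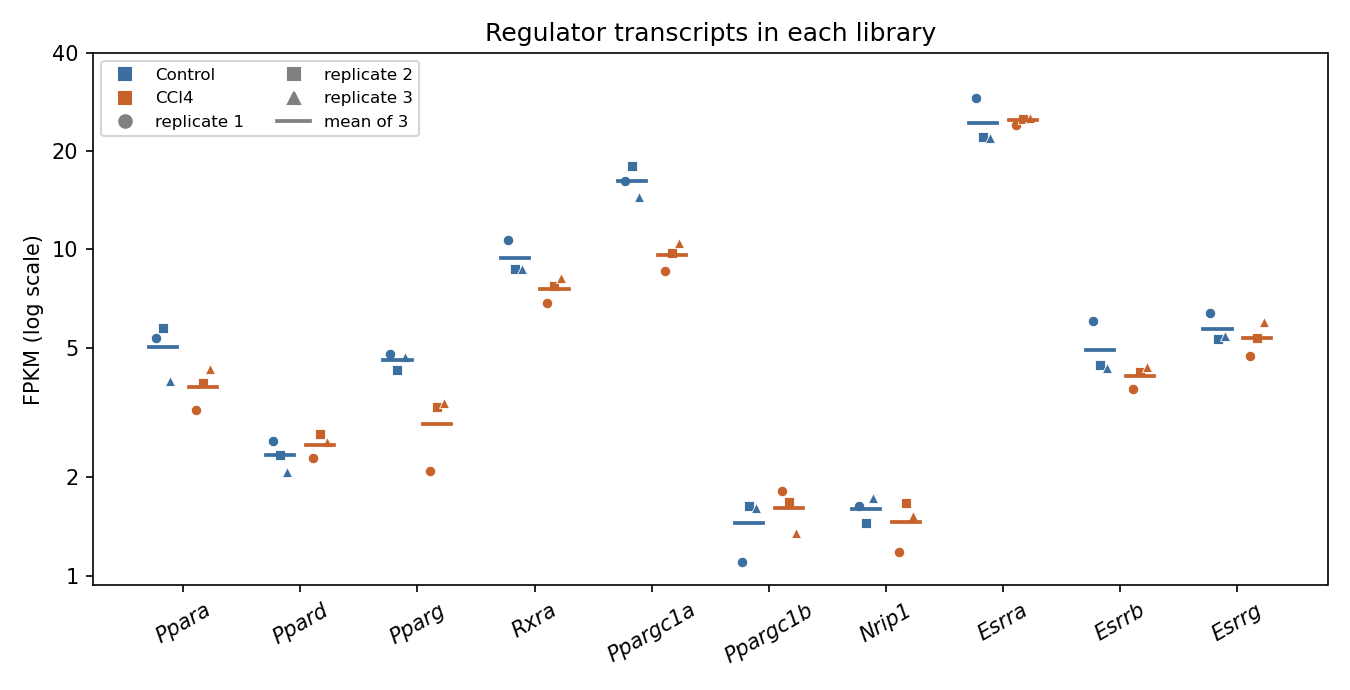
FPKM of the 10 regulators on a log axis in each of the 6 libraries, with control in blue, CCl4 in orange, a symbol for each replicate and a bar at the mean of 3. Ppargc1a, Pparg and Rxra are the 3 of 10 genes whose groups do not overlap, beside 48.7% of all tested rows, and Esrra is the most abundant in both groups.

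Levels spread over more than an order of magnitude. In control libraries Esrra was highest at 22.03 to 29.2 FPKM, followed by Ppargc1a at 14.5 to 18.0 and Rxra at 8.73 to 10.7 FPKM, with no overlap between these neighbours. Esrrg (5.31 to 6.37), Ppara (3.95 to 5.74), Esrrb (4.32 to 6.03) and Pparg (4.28 to 4.79 FPKM) came next, and the ranges of Esrrg, Ppara and Esrrb overlapped, as did that of Pparg with Ppara and Esrrb. Ppard (2.08 to 2.59 FPKM) stood apart below them, and Nrip1 (1.45 to 1.73) overlapped with Ppargc1b (1.10 to 1.63 FPKM) at the bottom. In CCl4 libraries the order was nearly kept, but Pparg (2.1 to 3.39 FPKM) now overlapped with Ppard (2.29 to 2.71 FPKM). By mean level Esrra stood at the 90.1th percentile of tested rows and Ppargc1a at the 80.7th, while Nrip1 and Ppargc1b shared the 13.1th.

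Ppargc1a encodes PGC-1 alpha, the inducible coactivator that couples cold, fasting and exercise to mitochondrial supply. The gene lies on the minus strand of chromosome 5 at 51454250 to 51567726 in GRCm38 (GENCODE M21). Control libraries held 16.3, 18.0 and 14.5 FPKM and CCl4 libraries 8.61, 9.73 and 10.5 FPKM. Every CCl4 library was thus below every control library. Groups that did not overlap, in either direction, were seen in 48.7% of all tested rows. On the log2(FPKM + 1) scale the gene fell by 0.70 ± 0.10 (SE; limma, adjusted p = 0.00223), and the mean in CCl4 libraries was 0.592 times that in controls. The limma call held under all 19 alternatives run, with fold changes from -0.87 to -0.58 and adjusted p from 0.000804 to 0.0123.

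Because Ppargc1a is abundant in heart muscle, its level was set beside the cardiomyocyte markers. None of the 11 markers fell and 2 rose, the cardiac actin Actc1 and the ventricular light chain Myl2, and 1 to 4 rose when 1 library was left out. The called share was 18.2%, beside 31.8% over all tested rows. Ppargc1a minus the mean log2 level of these markers was -5.08 ± 0.213 in controls against -6.09 ± 0.18 in CCl4 libraries (SD over 3 libraries a group; two-sided exact permutation p = 0.1, the smallest that 3 against 3 allows). Adjusted over the 27 library measures computed, each p of 0.1 given here becomes 0.15. The groups did not overlap in 18 of these 27 measures. The summed level of the muscle markers was higher in every CCl4 library, where Ppargc1a was lower. Most of the rise of that sum came from Actc1 (1735 ± 477 to 5840 ± 261 FPKM), and 9 of the 11 markers were not called. The part of the muscle marker level in the result was not tested.

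The tested rows whose profile over the 6 libraries lay nearest to that of Ppargc1a were Tinagl1, Tns1 and Map1lc3b. Likeness was the root mean square difference in log2(FPKM + 1) after subtracting each gene's own control mean, and it came to 0.017, 0.048 and 0.052. Map1lc3b encodes LC3B, a protein of autophagosome membranes, Tns1 the focal adhesion protein tensin 1, and Tinagl1 a secreted matrix protein. The level of Tinagl1 was 16.4 ± 1.56 in controls against 9.65 ± 0.864 FPKM in CCl4 libraries.

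The 250 bases before the RefSeq start of Ppargc1a are shown because this gene had the lowest adjusted p of the 10, with TGACG, the core of the site bound by the cyclic AMP factor CREB, in capitals wherever it stood on either strand. The sequence is from RefSeq on GRCm38.p6 at chr5:51567726-51567975, minus strand, written 5′ to 3′.
Ppargc1a: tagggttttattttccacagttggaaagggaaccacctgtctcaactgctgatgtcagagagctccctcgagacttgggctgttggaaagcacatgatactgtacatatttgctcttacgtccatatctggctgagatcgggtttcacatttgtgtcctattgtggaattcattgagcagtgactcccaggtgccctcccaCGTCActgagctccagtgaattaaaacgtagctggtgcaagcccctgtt
The single match reads on the opposite strand and spans 49 to 45 bases before the start. TGACG was present in 17.8% of the 32851 RefSeq windows of this length and in 3 of the 17 windows of the regulators, those of Ppargc1a, Ppara and 1 of the Esrrb windows. The full palindrome TGACGTCA, which contains TGACG, was in none of the 17 and in 1.55% of all windows. A match is a description of these letters and not of binding.

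Ppargc1b encodes PGC-1 beta, which supports baseline mitochondrial gene expression. Its libraries held 1.10, 1.63 and 1.61 FPKM in controls against 1.82, 1.68 and 1.35 FPKM in CCl4. The groups overlapped, with a log2 fold change of 0.10 and a 95% interval from -0.17 to 0.37 (limma adjusted p = 0.539). The share of Ppargc1a in the summed FPKM of both coactivators was 91.8% ± 1.85 in controls against 85.5% ± 3.03 in CCl4 libraries (SD over 3 libraries a group; two-sided exact permutation p = 0.1). That share was lower in each CCl4 library, at 82.6% to 88.6%, than in each control library, at 89.98% to 93.7%. Nrip1, the repressor on the other side, had 1.64, 1.45 and 1.73 FPKM in controls against 1.18, 1.67 and 1.52 FPKM in CCl4 libraries, with groups that overlapped (log2 fold change -0.09, interval -0.32 to 0.14, limma adjusted p = 0.521). Per unit of Nrip1 there was 10.2 ± 2.05 of Ppargc1a in control and 6.68 ± 0.762 in CCl4 libraries, without overlap (SD over 3 libraries a group; exact permutation p = 0.1). All measures built on Ppargc1a use the same values of that gene, so they are no separate evidence of its fall.

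Of the PPARs, Pparg encodes the receptor best known for building fat cells and also made by endothelial cells and macrophages. It lies on the plus strand of chromosome 6 at 115360951 to 115490399. Control libraries held 4.79, 4.28 and 4.67 FPKM, and CCl4 libraries 2.1, 3.29 and 3.39 FPKM. The groups did not overlap, and CCl4 replicate 1 was the lowest of all. Pparg fell by 0.52 ± 0.13 on the log2 scale (SE; limma adjusted p = 0.0205). Leaving out control replicate 1 took the value to -0.50 and ended the call narrowly (adjusted p = 0.05004), as did testing all rows above 0 (adjusted p = 0.0772). Without CCl4 replicate 1 the fold change was -0.36 and the call held (adjusted p = 0.021).

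Pparg was set beside markers of the cells known to make it. Of 8 endothelial markers 1 rose, Kdr, and none fell, with 1 to 2 higher when 1 library was left out and 1 to 4 across scalings. The called share was 12.5%, beside 31.8% over all tested rows. Pparg minus their mean log2 level was -1.46 ± 0.0628 in controls against -2.15 ± 0.253 in CCl4 libraries (SD over 3 libraries a group; exact permutation p = 0.1). Defining fat cell transcripts were near 0. Adipoq, adiponectin, was at 0.04 to 0.19 FPKM, Plin1, the coat protein of fat cell lipid droplets, at 0.01 to 0.05 FPKM, and Lep, leptin, at 0 in 5 of 6 libraries, all below the test's minimum. The sum of 11 fat cell markers ran from 17.9 to 24.5 FPKM in controls against 34.8 to 38.6 FPKM in CCl4 libraries, most of it from Cidea (18.4 ± 4.48 and 33.3 ± 1.2 FPKM). Of 5 tested macrophage markers Cd163, a scavenger receptor of resident macrophages, fell from 6.27 ± 0.75 to 2.73 ± 0.662 FPKM and Cd68, a lysosomal marker, rose. That was a called share of 40%. The sum over the 6 macrophage markers was 24.5 to 29.9 FPKM in controls against 22.7 to 25.3 FPKM in CCl4 libraries, and its part in the result was not tested.

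Nearest to Pparg in profile were Ndst1, an enzyme of heparan sulfate synthesis, Tgfbr3, the TGF-beta co-receptor betaglycan, and Dip2c, with root mean square differences of 0.039, 0.047 and 0.052. Tgfbr3 was at 9.67 ± 0.219 and 6.32 ± 1.17 FPKM (SD, n = 3 each). Ndst1 and Dip2c lost their own calls with no filter (adjusted p = 0.0661 and 0.0634).

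RefSeq gives 3 starts for Pparg, and the table holds 1 value per gene, so their products cannot be told apart in these data. The first and the last of the 250-base windows are shown to let these starts be compared, since the first is rich in G and C (82.4%) and the last, the start of the fat cell isoform, is not (40.8%, beside a median of 52.4% over all windows). Capitals mark AGGTCA, the core motif of nuclear receptors. The windows are on the plus strand of GRCm38.p6 at chr6:115360894-115361143 and chr6:115421816-115422065.
Pparg first start: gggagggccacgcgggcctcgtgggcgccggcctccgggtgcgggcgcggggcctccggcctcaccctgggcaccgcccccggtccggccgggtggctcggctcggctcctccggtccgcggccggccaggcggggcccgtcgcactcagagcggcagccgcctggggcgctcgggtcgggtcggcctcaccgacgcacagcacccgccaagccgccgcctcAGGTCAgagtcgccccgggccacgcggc
Pparg last start: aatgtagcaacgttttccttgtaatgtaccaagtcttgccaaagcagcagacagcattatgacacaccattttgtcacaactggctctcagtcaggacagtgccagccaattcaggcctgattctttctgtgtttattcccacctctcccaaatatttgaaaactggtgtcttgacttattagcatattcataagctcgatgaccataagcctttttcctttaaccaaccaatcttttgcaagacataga
AGGTCA on either strand was in 14.0% of all windows and in 3 of the 17 windows of the regulators, 2 of Pparg and 1 of Rxra. In the first Pparg window it spans 28 to 23 bases before the start. The longer motifs were TCAAGGTCA, bound by ERRs, and a direct repeat of AGGTCA with N between the copies, bound by PPAR with RXR, and both contain AGGTCA. They were in none of the 17 windows and in 0.387% and 0.0335% of all windows. RefSeq windows were matched for 9 of the 10 regulators, all but Ppargc1b.

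Ppara, the PPAR with the strongest hold on fat oxidation in heart and liver, lies on chromosome 15 at 85734983 to 85802819. Its libraries held 5.34, 5.74 and 3.95 FPKM in controls against 3.21, 3.90 and 4.29 FPKM in CCl4. Control replicate 3 lay inside the CCl4 range, and the log2 fold change of -0.32 ± 0.13 (SE) had a 95% interval from -0.63 to -0.01 and did not pass (limma adjusted p = 0.103). It passed without control replicate 3 (-0.45, adjusted p = 0.0252) and as TPM (-0.48, adjusted p = 0.0309). Ppard, the form found in most tissues, had 2.59, 2.35 and 2.08 FPKM in controls against 2.29, 2.71 and 2.57 FPKM in CCl4 libraries. Its groups overlapped, with a log2 fold change of 0.08 and an interval from -0.13 to 0.28 (limma adjusted p = 0.528). The summed FPKM of the 3 receptors was 11.9 ± 1.08 in controls against 9.25 ± 1.44 in CCl4 libraries (SD over 3 libraries a group; exact permutation p = 0.1). Within that sum Ppara held 41.8% ± 4.75 and 41.2% ± 1.54 (exact permutation p = 0.9), Pparg 38.6% ± 4.6 and 31.3% ± 3.19, and Ppard 19.6% ± 0.696 and 27.5% ± 2.53 (both p = 0.1). The share of Pparg was lower and that of Ppard higher in every CCl4 library, while the share of Ppara overlapped between groups. A share also depends on the other members of its sum, and Ppard itself was not called.

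**Figure D2:**
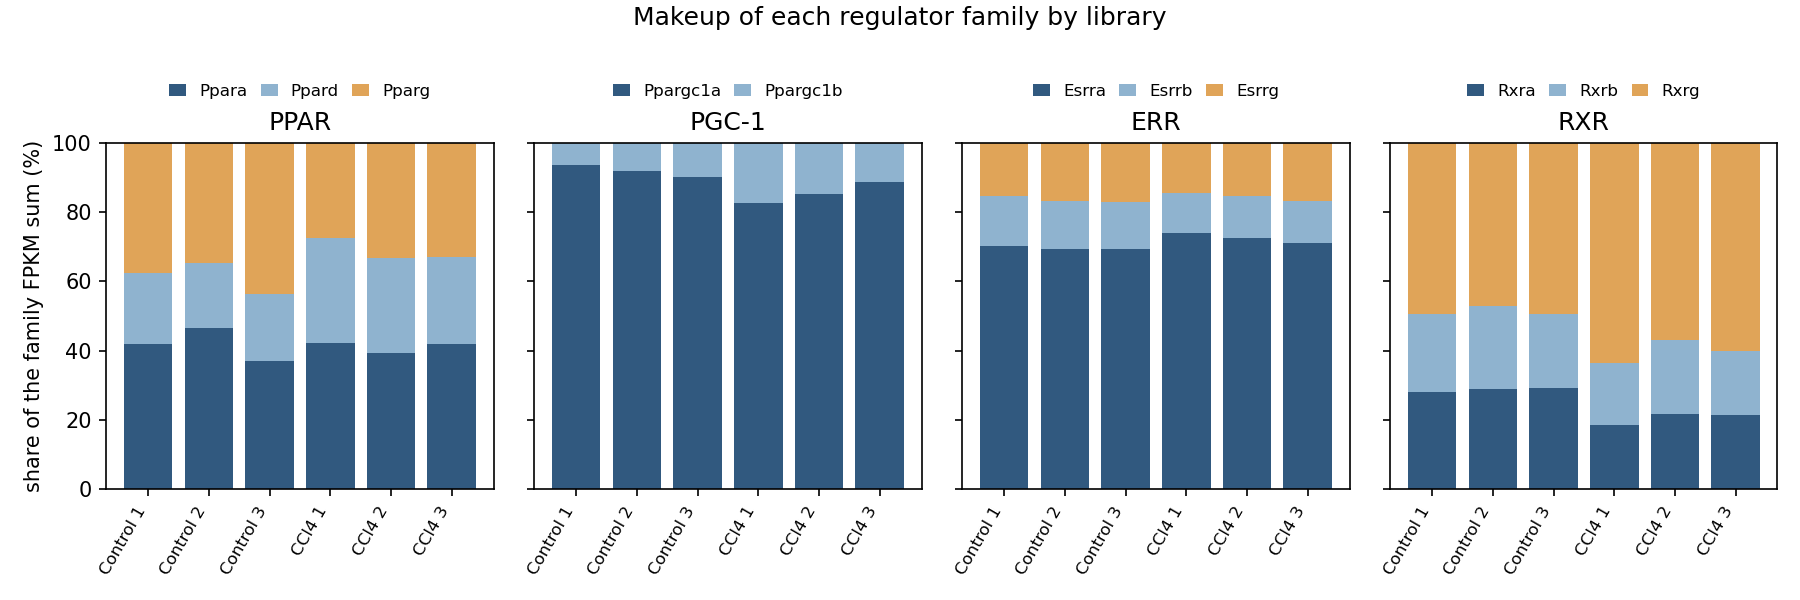
Share of each gene in the summed FPKM of its family, in percent, as stacked bars for each of the 6 libraries. Rxrg takes 47.1% to 49.4% of the RXR sum in control and 57.0% to 63.4% in CCl4 libraries. Esrra holds most of the ERR sum in all 6, at 69.3% to 70.2% in control and 71.0% to 74.0% in CCl4 libraries.

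Rxra encodes the retinoid X receptor that pairs with PPARs and lies on chromosome 2 at 27676440 to 27762957. It was at 10.7, 8.74 and 8.73 FPKM in controls against 6.87, 7.70 and 8.18 FPKM in CCl4 libraries. The groups did not overlap, yet the log2 fold change of -0.27 ± 0.10 (SE) did not pass (limma adjusted p = 0.0704). As TPM it was -0.43 (adjusted p = 0.019) and with the mitochondrial rows removed -0.34 (adjusted p = 0.0396), while TMM scaling gave -0.20 (adjusted p = 0.161). Its relatives Rxrb and Rxrg, which are not among the 10, gave another picture. Rxrg, the form of heart and skeletal muscle, held 18.9, 14.3 and 14.8 FPKM in controls against 23.5, 20.1 and 23.1 FPKM in CCl4 libraries and rose by 0.46 ± 0.12 (SE; limma adjusted p = 0.0193). The call on Rxrg was lost without control replicate 2 or 3 or CCl4 replicate 1 or 3 (adjusted p from 0.0532 to 0.0686), as TPM (0.0747) and with no filter (0.0622). Rxrb was at 7.47 ± 1.09 and 7.07 ± 0.415 FPKM (log2 fold change -0.06, limma adjusted p = 0.662). The share of Rxra in the RXR sum was 28.7% ± 0.587 in controls against 20.6% ± 1.74 in CCl4 libraries, and that of Rxrg 48.6% ± 1.32 and 60.2% ± 3.22 (SD over 3 libraries a group; exact permutation p = 0.1 for both). Such shares are the same under any scaling that multiplies a library by a single factor, and were not recomputed under quantile scaling.

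None of the 3 estrogen-related receptors passed. Esrra, the most abundant of them, lies on chromosome 19 at 6910977 to 6921813 and shares 73 exonic bases with Trmt112 on the other strand, whose reads could be counted with it where strand was not used. Its libraries held 29.2, 22.1 and 22.03 FPKM in controls against 24.1, 25.2 and 25.4 FPKM in CCl4. All CCl4 libraries fell inside the control range, and the log2 fold change was 0.04 with a 95% interval from -0.22 to 0.30 (limma adjusted p = 0.827). The sign turned as TPM, with mitochondrial rows removed, and without control replicate 2 or 3. Esrrb, known from stem cells and the inner ear, had 6.03, 4.43 and 4.32 FPKM in controls against 3.74, 4.20 and 4.36 FPKM in CCl4 libraries (log2 fold change -0.21, interval -0.48 to 0.06, limma adjusted p = 0.21). Esrrg, which promotes the switch of the newborn heart to oxidative fuel, had 6.37, 5.31 and 5.42 FPKM in controls against 4.71, 5.36 and 5.99 FPKM in CCl4 libraries. Its log2 fold change was -0.08 with an interval from -0.31 to 0.15 (limma adjusted p = 0.579), and the sign turned with median-ratio and quantile scaling and with library weights. The ERR sum was 35.1 ± 5.67 and 34.3 ± 1.63 FPKM (SD over 3 libraries a group; exact permutation p = 1). Within that sum the share of Esrra was 69.6% ± 0.482 in controls against 72.5% ± 1.5 in CCl4 libraries, without overlap (exact permutation p = 0.1). The share of Esrrb was 14.0% ± 0.453 and 11.9% ± 0.382. Per unit of Esrra, the receptor it serves, Ppargc1a went from 0.676 ± 0.131 to 0.386 ± 0.0282 (SD over 3 libraries a group; exact permutation p = 0.1). This ratio uses the Ppargc1a values given above.

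Single libraries weighed on several of these genes. CCl4 replicate 1, which had the lowest estimated depth, was the lowest of all 6 libraries for 7 of the 10 regulators (Ppara, Pparg, Ppargc1a, Rxra, Esrrb, Esrrg and Nrip1). Control replicate 1 was the highest for 5 (Pparg, Rxra, Esrra, Esrrb and Esrrg). How often these libraries were lowest or highest over all tested rows was not counted, so the counts do not set the regulators apart. The median log2 fold change over all tested rows was -0.087 and became -0.065 without CCl4 replicate 1. The part of depth was not tested. Without CCl4 replicate 1, Ppargc1a and Pparg were still called, and without control replicate 1 only Ppargc1a was.

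**Figure D3:**
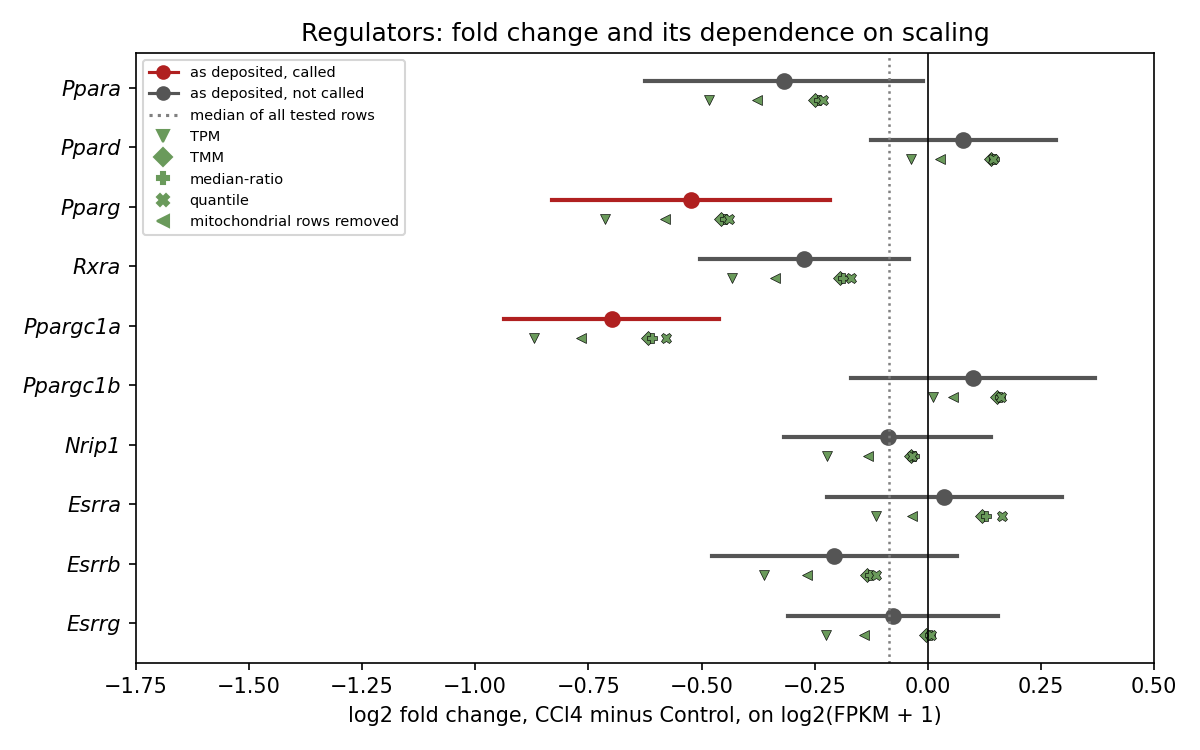
Log2 fold change of each regulator, CCl4 minus control, as a point with its 95% interval from limma on the deposited values, red where called, and the values under 5 other scalings as green symbols. Ppargc1a lies between -0.87 and -0.58 under every scaling shown, while Ppard, Esrra and Esrrg lie on both sides of 0.

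The other parts of the pathway were taken from lists of partners, upstream regulators and target genes. These lists and the 10 regulators were chosen with earlier results of these data known, so a list's direction is a description. Among 18 RXR partners and co-regulators 3 rose and 7 fell, or 55.6% of those tested beside the 31.8% over all rows, with a median log2 fold change of -0.17. The falls were led by Ncor1, the nuclear receptor corepressor (8.45 ± 0.232 to 5.96 ± 0.383 FPKM), Ncoa2, a p160 coactivator (3.60 ± 0.16 to 2.51 ± 0.144 FPKM), and Crebbp, an acetyltransferase that works with PGC-1 (2.15 ± 0.0929 to 1.48 ± 0.0153 FPKM). The rises were Perm1, a muscle protein induced by PGC-1 and ERR (59.8 ± 3.55 to 78.6 ± 3.95 FPKM, limma adjusted p = 0.00848), Rxrg, and Lpin1, lipin 1, a partner of PGC-1 alpha. Lpin1 was at 10.45 ± 1.59 and 13.7 ± 1.39 FPKM, and its call (adjusted p = 0.0496) held without control replicate 1 and was lost on leaving out any of the other 5 libraries (adjusted p from 0.0617 to 0.158). Lpin1 was not called either as TPM (0.197), with mitochondrial rows removed (0.0979), with no filter (0.129), at smaller pseudocounts (0.051 and 0.0512) or without the variance trend (0.0519). Perm1 lost its call as TPM (adjusted p = 0.0553). As TPM the list had 0 higher and 10 lower members, with TMM 3 and 6. Without control replicate 2 or 3 or CCl4 replicate 1 or 3, 1 member was higher.

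Upstream of PGC-1 alpha, 2 of 22 tested kinases and factors rose and 4 fell (median -0.10), a called share of 27.3% that lay below the 31.8% over all rows. Sirt1, the deacetylase that activates PGC-1 alpha, had 3.77, 4.57 and 5.70 FPKM in controls against 2.09, 2.67 and 3.10 FPKM in CCl4 libraries, without overlap, and fell by 0.65 ± 0.15 (SE; limma adjusted p = 0.0123), a call lost with no filter (0.0548). Stk11, the kinase LKB1 that activates AMP-activated kinase, went from 23.7 ± 1.68 to 17.1 ± 0.484 FPKM, and Crtc2, a CREB coactivator, from 4.50 ± 0.368 to 3.25 ± 0.229 FPKM, a call lost without CCl4 replicate 3 (adjusted p = 0.0515). Atf2, which falls outside the naming rule and was named after its values were seen, was the fourth to fall. Prkaa2, the main catalytic subunit of AMP-activated kinase in muscle, was at 13.8 ± 1.61 and 13.8 ± 1.45 FPKM (log2 fold change 0.01, limma adjusted p = 0.962). The rises were Sirt3, the mitochondrial deacetylase (3.65 ± 0.722 to 5.11 ± 0.196 FPKM), and Mef2c, a muscle transcription factor (2.95 ± 0.377 to 3.76 ± 0.11 FPKM). Sirt3 held its call only without control replicate 1, and Mef2c only without control replicate 3 (adjusted p otherwise 0.056 to 0.0831 and 0.0916 to 0.14). As TPM and with no filter neither was called (Sirt3 0.0918 and 0.0825, Mef2c 0.191 and 0.108), nor was Mef2c with mitochondrial rows removed (0.0939). As TPM the list had 0 higher and 9 lower members and with TMM 3 and 4. No member was higher without control replicate 2 or any 1 of the CCl4 libraries, 1 was without control replicate 1, and 2 were lower without CCl4 replicate 3.

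Among 12 tested factors of mitochondrial DNA and biogenesis 1 rose and 3 fell, a called share of 33.3% beside 31.8% over all tested rows. Their median log2 fold change was -0.10, beside -0.09 over all tested rows. Tfam, which packs and transcribes mitochondrial DNA and is a classic PGC-1 target, had 7.49, 5.80 and 5.73 FPKM in controls against 7.82, 8.13 and 8.47 FPKM in CCl4 libraries, where it rose by 0.32 ± 0.10 (SE; limma adjusted p = 0.0436). This call held without control replicate 1 and was lost on leaving out any of the other 5 libraries (adjusted p from 0.0758 to 0.13). The call on Tfam was also lost as TPM (adjusted p = 0.215), with mitochondrial rows removed (0.0929) and with no filter (0.109). Gabpa, a subunit of the nuclear respiratory factor NRF-2 that switches on Tfam, fell from 8.69 ± 0.112 to 6.73 ± 0.754 FPKM (adjusted p = 0.0229), a call lost without control replicate 2 or 3 or CCl4 replicate 2 (adjusted p from 0.0507 to 0.0582). Polg, the mitochondrial DNA polymerase, and Yy1, a PGC-1 partner, were the other 2 to fall. Polg lost its call without control replicate 2 or CCl4 replicate 1 or 2 (adjusted p from 0.0543 to 0.0606), and Yy1 on leaving out any library but CCl4 replicate 2 (0.0708 to 0.0952). With TMM, median-ratio or quantile scaling or no filter, Polg (adjusted p from 0.0518 to 0.0592) and Yy1 (0.0793 to 0.0961) were not called, and Gabpa was not called with median-ratio or quantile scaling or no filter (0.0511 to 0.0564). Nrf1, the other respiratory factor, was under the minimum for testing, with 1.09, 1.10 and 1.05 FPKM in controls against 0.97, 0.86 and 0.74 FPKM in CCl4 libraries. The list had 0 higher and 4 lower members as TPM and 1 of each with TMM. Leaving out 1 library gave 0 or 1 higher, and 0 (without control replicate 2) to 2 lower.

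Target genes were taken for each receptor family. Of 32 tested PPAR target genes, most of them for fat uptake and oxidation, 29 fell and none rose, or 90.6% beside 31.8% over all rows and 20% of the regulators, with a median log2 fold change of -0.81. Pdk4, which blocks pyruvate oxidation, was at 294.2 to 459.5 FPKM in controls against 18.1 to 22.7 FPKM in CCl4 libraries. Angptl4, a secreted inhibitor of lipoprotein lipase, had 4.27, 4.96 and 7.91 FPKM in controls against 0.52, 1.02 and 0.45 FPKM in CCl4 libraries. Acot1, an acyl-CoA thioesterase, went from 20.4 ± 4.82 to 1.67 ± 0.317 FPKM and Slc27a1, a fatty acid carrier, from 52.9 ± 1.72 to 22.04 ± 0.703 FPKM. Acot1 and Acot2 are near copies, and the authors' counting could split reads between them. The 3 not called were Acadvl, Acsl1 and Slc22a5, named after their values were seen, and Fgf21 was listed at 0 in all 6 libraries. The number lower was 27 to 31 across all scalings and 27 to 28 when any 1 library was left out.

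Of 21 ERR and PGC-1 target genes, mostly of the citric acid cycle and respiratory chain, 4 rose and 2 fell. Their median log2 fold change was 0.05. The called share of 28.6% lay below the 31.8% over all tested rows, where 9.64% were higher and 22.2% lower. The rises were led by Cycs, cytochrome c (100.7 ± 13.9 to 159.9 ± 5.58 FPKM), Idh3a, a subunit of isocitrate dehydrogenase (73.3 ± 10.9 to 111.7 ± 6.64 FPKM), and Ckmt2, the mitochondrial creatine kinase of muscle (612.4 ± 155 to 1010 ± 74.1 FPKM). Ckmt2 lost its call with no filter (adjusted p = 0.0531). Sod2, the mitochondrial superoxide dismutase, named after its values were seen, was the fourth. The falls were Acadm, a fat oxidation enzyme that is also on the PPAR list (286.4 ± 11.99 to 216.6 ± 5.34 FPKM), and Slc25a4, the ADP/ATP carrier of heart (1577 ± 93.9 to 1233 ± 41.5 FPKM). Slc25a4 was not called with TMM (adjusted p = 0.082), median-ratio (0.096) or quantile scaling (0.199), or with no filter (0.0711). As TPM 3 members were higher and 6 lower, with TMM 4 and 1, and without control replicate 1 there were 8 higher and 2 lower. The lists share 1 gene, and the difference between them was not tested.

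**Figure D4:**
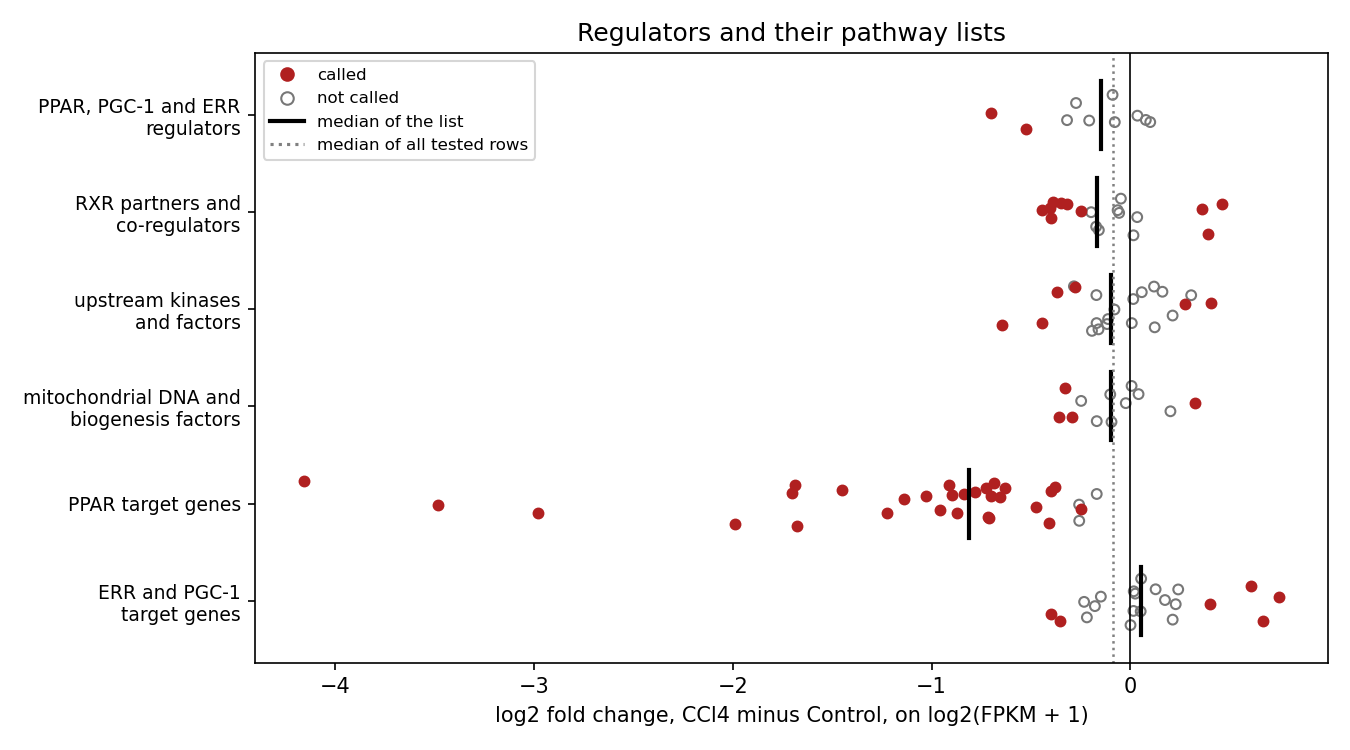
Log2 fold change (CCl4 minus control) of each tested gene in 6 lists, filled red where called, with a bar at the list median and a dotted line at the median of all tested rows. The PPAR target genes have a median of -0.81 and reach -4.16, while the 10 regulators have a median of -0.15.

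Set among all nuclear receptors, the 7 receptors of the set had 1 call, Pparg. Of 49 nuclear receptor genes 29 were tested, and 3 rose and 10 fell, Pparg among them (median -0.16). The called share was 44.8%, beside 31.8% over all tested rows. The largest fall by p was that of Nr4a1, an immediate early receptor (54.9 ± 24.8 to 2.36 ± 0.998 FPKM), and Nr1h2, the liver X receptor beta, fell as well (15.3 ± 0.439 to 11.2 ± 0.393 FPKM). Nr1d1, the clock repressor REV-ERB alpha, rose from 26.9 ± 2.55 to 39.9 ± 1.88 FPKM, and Nr2f6, an orphan receptor, from 7.00 ± 1.24 to 9.48 ± 0.23 FPKM, beside Rxrg. Nr2f6 held its call only without control replicate 1 (adjusted p otherwise 0.061 to 0.0838) and lost it as TPM (0.116) and with no filter (0.0792). The split was 1 higher and 13 lower as TPM, 4 and 7 with TMM, 5 and 6 with quantile scaling. Without control replicate 2 or 3 or CCl4 replicate 1 or 3, 1 was higher, and 6 were lower without CCl4 replicate 1 or 3.

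Scaling bears on all of these counts. Rows of the mitochondrial genome took 48.6% to 50.7% of the FPKM sum in control and 52.0% to 53.2% in CCl4 libraries, and the sums themselves ran from 519609 to 602763. As TPM the median log2 fold change over tested rows moved from -0.09 to -0.23, and with TMM to -0.02. Calls in the higher direction made up 30.3% of all calls on the deposited values, 12.8% as TPM and 47.2% with TMM. Of the regulators, 4 were lower as TPM (Ppara and Rxra in addition) and 2 with TMM, and none was higher under either.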

How the data were processed

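RNA from 3 control and 3 CCl4 libraries was sequenced after oligo(dT) capture, per the labels' protocols. The deposited table holds FPKM values made by the authors. StringTie 2.1.6 and GRCm38 come from the submitters' processing notes. The sources used here name no aligner, annotation release or strand setting.

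Values were transformed to log2(FPKM + 1), rows with a mean of at least 1 FPKM were kept, and groups were compared with limma 3.58.1 (R 4.3.3, eBayes with trend, two-sided, no covariate), with Benjamini-Hochberg adjustment over all tested rows and calls at 0.05. The pseudocount of 1 understates the change of low genes. The script was tested on simulated data. Depth was estimated from low values of 3638 single-exon genes, 866 to 1032 values a library. The value of 1 fragment was taken as the commonest of these low values within a preset range, which also bounds the depth. Between 25.5% and 32.4% of the low values came within 10% of whole fragments (20% if spread evenly), so no count test was run. Some excess over 20% is built in, because the same values set the unit. Single measures used exact permutation tests. The table holds 0 columns of other samples.

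The regulators and lists were chosen with earlier results of these data known. Named were all regulators, the 3 called genes with the smallest p per list and direction, Rxrb, Rxrg, Perm1, Lpin1, Tfam, Nrf1, Gabpa, Sirt1, Prkaa2, Pdk4 and Angptl4 whatever their values, and the 3 nearest profiles of each called regulator. A gene that this rule names is not reported here. Symbols matched GENCODE M21 for 96.8% of rows. Alternatives were other pseudocounts, filters, scalings and variance settings, a replicate block and leaving out each library.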

Additional observations from a re-analysis of the deposited data

How the results depend on the processing

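Of the regulators, Ppargc1a kept its call under all 19 alternatives, Pparg under 16 of 18, and none was called higher under any. The number called was 2 and became 1 with no filter, 1 at a mean FPKM of at least 5 (where Pparg is not tested), 4 as TPM, and 1 to 3 when 1 library was left out. With the mitochondrial rows removed it was 3. Called rows numbered 3501 in all, 2165 at a mean FPKM of at least 5, where fewer rows are tested, and 2188 to 3258 with 1 library left out. The 6 lists counted here are the co-regulators, the upstream factors, the biogenesis factors, both sets of target genes and the nuclear receptors. Over these lists 66 distinct genes were called, 44 with no filter and 49 to 63 with 1 library left out. With the replicate number as a block (replicate block), 2 regulators, 2651 rows and 54 list genes were called. The block ended no call of a regulator, ended those of Gabpa, Lpin1, Mef2c, Tfam and Yy1. Deviations of same-numbered libraries correlated at -0.064, 0.046 and -0.038, and those of differently numbered ones at -0.097 to 0.123. With 3 libraries a group these values cannot decide whether libraries were paired.

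The sign turned in genes that were not called. As TPM, Ppard was at -0.037, Esrra at -0.12 and Prkaa2 at -0.14. With mitochondrial rows removed, Esrra was at -0.035 and Prkaa2 at -0.061. Esrrg was at 0.0036 with median-ratio and 0.0075 with quantile scaling and 0.0048 with library weights. Rxrb was at 0.013 with TMM, 0.021 with median-ratio and 0.038 with quantile scaling. With 1 library left out, Ppargc1b ranged from -0.0060 to 0.18, Esrra from -0.030 to 0.17, Rxrb from -0.15 to 0.033 and Prkaa2 from -0.041 to 0.096. For these genes the cause was not tested. With 3 libraries a group, exact permutation cannot give a p below 0.1 for any single gene.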
